A study of Mus musculus with 9 samples.

Results

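Il2, Mzb1 and Gsdmd are 3 immune effector genes that an Agilent array read in mouse aorta by 10 replicate spots each, through the probes A_51_P114222 (NM_008366, Il2), A_51_P452153 (NM_027222, Mzb1) and A_51_P172231 (NM_026960, Gsdmd). They were chosen by probe name, and they are 3 of the 49 genes for which the array files pair a probe with a transcript that resolves to a gene symbol. Aortic RNA came from 9 male C57BL/6J mice, 1 array per animal and 3 animals per group. The vehicle group received no sitagliptin, and the labels name no diet for it. The DIO group was fed a high-fat diet for 4 months without sitagliptin. The DIO+sitagliptin group was fed a high-fat diet and given oral sitagliptin at 3 mg/kg per day, with no length of diet in its label and no age for any group. Sitagliptin is an antidiabetic drug that blocks DPP-4, an enzyme that breaks down incretins.

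Interleukin 2, the product of Il2, is a growth factor that activated T cells secrete and that acts on T cells and natural killer cells through the interleukin 2 receptor. Mzb1 encodes a chaperone of the endoplasmic reticulum, found in marginal zone B cells and plasma cells, that helps immunoglobulin assembly and secretion. Gsdmd encodes gasdermin D, which inflammatory caspases cleave downstream of the inflammasome and whose freed amino-terminal part forms pores in the plasma membrane, the lytic step of pyroptosis. In a healthy artery wall, lymphocytes are few and lie mainly in the adventitia and the surrounding fat. Each value below comes from a whole aorta, so fewer cells of a type and less RNA per cell cannot be told apart.

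The 3 genes could not be set beside their pathways. Of 17 genes listed for interleukin 2 signalling 1 had a named probe, Il2 itself. Mzb1 was the named gene of 18 for plasma and B cells, and Gsdmd that of 29 for pyroptosis and the inflammasome. No gene of the lists for T cells (14 genes), macrophages and monocytes (10 genes), aortic smooth muscle (8 genes), endothelium (8 genes), adventitial fibroblasts (7 genes) or adipocytes (8 genes) had one. The receptor subunits, caspases, interleukin 1 beta, immunoglobulin chains and defining markers of the aorta were therefore not analysed here, and the tissue label was not checked against markers.

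By their headers, 7 arrays were scanned on 12 November 2020. The other 2 were read on 20 November 2020 and held the samples vehicle 3 and DIO+sitagliptin 3. These later arrays stood apart in brightness. Their median spot read 12.8 and 13.5 intensity units, against 19.4 to 37.6 on the others. Control features for mouse GAPDH come with names ending in 3 and in 5, and the log2 ratio of the former over the latter was -2.47 and -1.73 on them and -1.61 to 0.49 on the others. A floor for each array came from 15 probes named NEGATIVE, with 45 spots. The highest of them read 24.6 to 48.6 units. Their median read 8.19 to 24.8 units on 12 November and 1.31 and 1.89 units on 20 November.

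Il2 was the brightest of the 3 probes on 8 of the 9 arrays, although the levels of different probes do not compare the abundance of different transcripts. The base sequence just before its start is shown because Il2 transcription is the standard example of control by NFAT, the factor that calcium signalling from the T-cell receptor sends to the nucleus. RefSeq places these 250 bases at chr3:37125955-37126204 on the minus strand of GRCm38.p6. The array files name mm9, and no position of a probe was taken from either build. Capitals mark the NFAT core GGAAA, searched on both strands, and the TATA box TATAAA, searched on the gene's strand.
Il2 promoter: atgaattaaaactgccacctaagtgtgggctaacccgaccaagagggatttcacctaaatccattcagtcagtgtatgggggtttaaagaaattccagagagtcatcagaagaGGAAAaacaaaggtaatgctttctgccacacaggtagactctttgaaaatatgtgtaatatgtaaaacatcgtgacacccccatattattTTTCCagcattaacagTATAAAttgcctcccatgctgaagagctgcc
The NFAT core occurred 2 times, at 137 to 133 bases before the start and, on the opposite strand, at 47 to 43 bases. The TATA box lay at 31 to 26 bases. None of these matches overlapped another. A GGAAA on either strand was present in 55.6% of the 32851 promoters of the same length, 2 or more in 21.4%, and TATAAA in 7.59%. The matches describe the sequence alone, since the arrays did not measure binding.

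On the array itself, Il2 gave intensities of 112, 159 and 14.3 units in vehicle aortas. DIO aortas gave 153, 88.6 and 119 units, and DIO+sitagliptin aortas 146, 189 and 9.38 units. All 7 arrays of 12 November lay between 88.6 and 189 units whatever the group, and both arrays of 20 November lay at least 6.19-fold below the lowest of them. The well-above-background mark was given to 89 of 90 Il2 spots (98.9%). Per array, 61.7% to 82.9% of all spots outside the control features carried it. So did 22.2% to 71.1% of the NEGATIVE spots, so the mark alone does not set a probe apart from that floor. On the 7 earlier arrays Il2 exceeded the highest NEGATIVE probe 3.01- to 5.07-fold, and it ranked at the 80.3rd to 85.4th percentile of all probes. On vehicle 3 and DIO+sitagliptin 3 it read 0.35 and 0.31 of the highest NEGATIVE probe, at the 52.0th and 41.9th percentile. Against the median NEGATIVE probe the contrast was smaller, with ratios of 10.9 and 4.97 on the later arrays and 5.90 to 13.7 on the earlier ones.

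Mzb1 read 66.6, 59.0 and 13.1 units in vehicle aortas. DIO aortas read 85.6, 42.2 and 59.9 units, and DIO+sitagliptin aortas 61.3, 57.4 and 20.6 units. DIO held both the highest and the lowest value of 12 November. All 90 Mzb1 spots were marked well above background. The probe exceeded the highest NEGATIVE probe 1.26- to 2.44-fold on 12 November and reached 0.32 and 0.69 of it on 20 November. Against the median NEGATIVE probe the order was the other way, with ratios of 2.47 to 8.13 on 12 November and 10.0 and 10.9 on 20 November.

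Gsdmd was the dimmest on all 9 arrays. Vehicle aortas gave 50.0, 45.6 and 9.71 units. Those of DIO gave 48.2, 31.4 and 32.0 units, and treated aortas 57.5, 32.8 and 4.20 units. On 12 November the 2 vehicle values lay within the range of the treated aortas, and DIO 1 fell between them while DIO 2 and DIO 3 lay below both. Well above background were 82 of 90 spots (91.1%), and the 8 without the mark were all on DIO+sitagliptin 3, where 2 of 10 spots carried it. Gsdmd stayed close to the highest NEGATIVE probe or under it throughout, at 0.88 to 1.40 of it on 12 November and at 0.24 and 0.14 on 20 November. Against the median NEGATIVE probe its ratios were 2.28 to 6.11 on 12 November. They were 7.43 on vehicle 3 and 2.23 on DIO+sitagliptin 3.

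**Figure D1:**
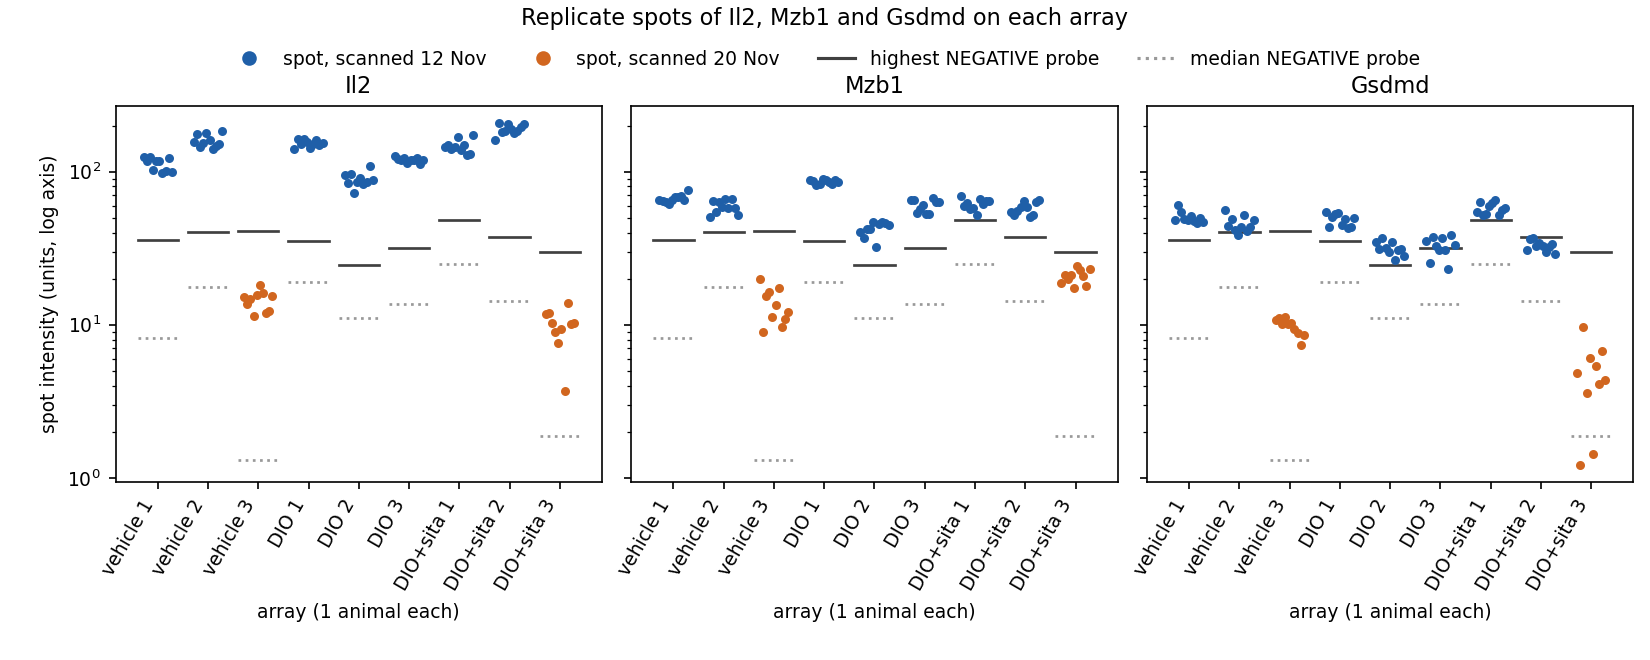
Intensity of the 10 spots of Il2, Mzb1 and Gsdmd (log axis, intensity units) on each of the 9 arrays, coloured by scan date, with the highest (solid) and the median (dotted) NEGATIVE probe of the array. Il2 stands 3.01- to 5.07-fold above the solid line on the arrays of 12 November, Gsdmd lies near it, and all 3 genes fall under it on vehicle 3 and DIO+sitagliptin 3.

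The spread between replicate spots was set beside the spread between arrays. The coefficient of variation over 10 spots had a median of 9.83% for Il2, 9.42% for Mzb1 and 10.1% for Gsdmd. It was highest on an array of 20 November in each case, at 28.3%, 26.6% and 52.5%. Feature Extraction marked 6 Il2 spots, 4 Gsdmd spots and 0 Mzb1 spots as outliers, and 0 as saturated. On the log2(intensity + 1) scale the pooled SD of spots was 0.20 for Il2, 0.17 for Mzb1 and 0.28 for Gsdmd. After quantile normalization between arrays, the SD of arrays within groups was 1.32, 0.53 and 0.74, which is 6.67, 3.15 and 2.69 times as much. Vehicle and DIO+sitagliptin, which each hold an array of 20 November, carry most of this. In DIO, without such an array, the SD between arrays was 0.26 for Il2, 0.28 for Mzb1 and 0.16 for Gsdmd. The spot SD of Gsdmd was 0.13, 0.14 and 0.23 on the DIO arrays and 0.70 on DIO+sitagliptin 3, which raises its pooled value. Array values are normalized means of 10 spots, while the spot SDs are of single spots before normalization. Spots are not replicates of a group, and the tests below use the arrays alone.

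Normalized Il2 was 6.20 ± 1.29 (SD, n = 3) in vehicle, 6.41 ± 1.88 in DIO+sitagliptin and 6.94 ± 0.26 in DIO, from the lowest mean to the highest. Mzb1 was 5.45 ± 0.37 in DIO+sitagliptin, 5.48 ± 0.79 in vehicle and 5.94 ± 0.28 in DIO. For Gsdmd the order was DIO+sitagliptin with 4.56 ± 1.03, vehicle with 5.14 ± 0.74 and DIO with 5.15 ± 0.16. In no gene did neighbours in this order differ by more than the larger of their SDs. DIO, which has no array of 20 November, had the smallest SD for each gene. Over all 3 groups none of the 3 genes passed the moderated F-test of limma, a linear model with variances moderated across probes (adjusted p = 0.998 for each), where 0% of the 49360 probes tested did.

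**Figure D2:**
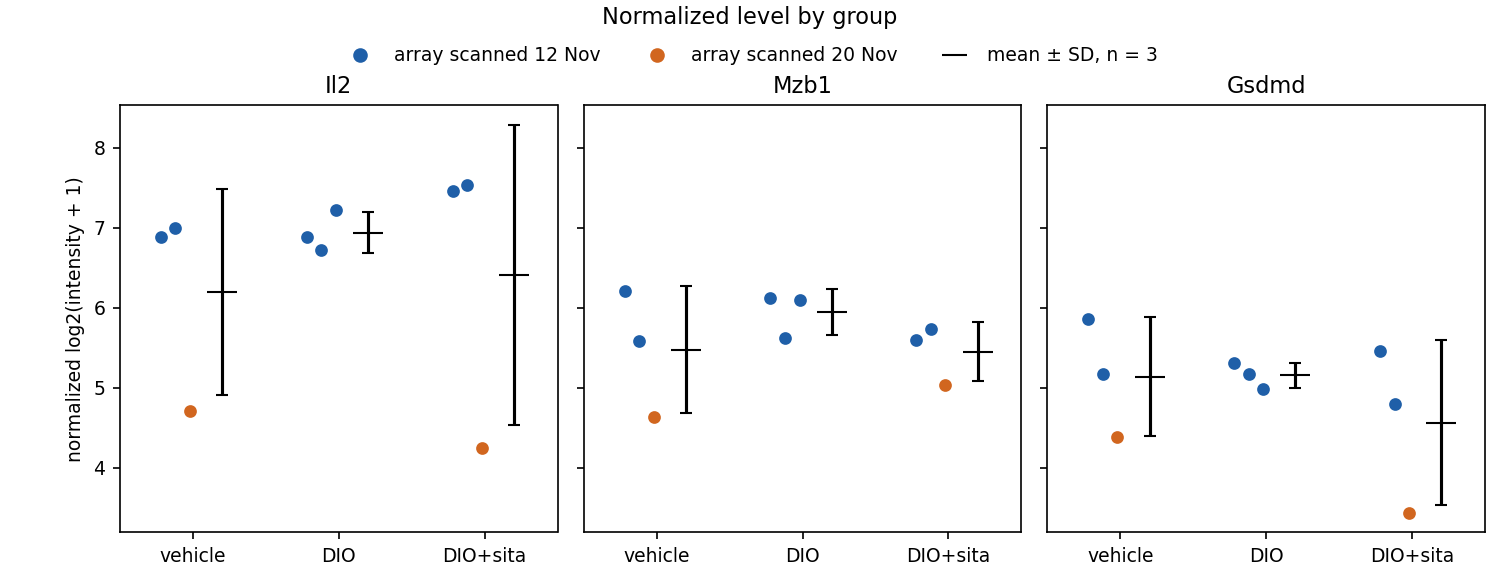
Normalized log2(intensity + 1) of each gene by group, 1 point per array coloured by scan date, with the mean and SD of the 3 arrays beside it. The lowest point of vehicle and of DIO+sitagliptin is the array of 20 November for every gene, and DIO, without such an array, has the smallest SD.

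DIO was first set against vehicle, for which the labels name no diet. Vehicle holds 1 array of 20 November and DIO holds none. Il2 had a difference of 0.74 ± 0.90 on the log2 scale (SE, n = 3 per group), Mzb1 of 0.47 ± 0.44 and Gsdmd of 0.02 ± 0.54. As folds the 95% intervals ran from 0.42 to 6.66 for Il2, from 0.70 to 2.73 for Mzb1 and from 0.44 to 2.31 for Gsdmd. None passed (limma adjusted p = 0.925, 0.925 and 0.994), as 0% of the 49360 probes did. An unadjusted p under 0.05 was reached by 0.717% of probes and by 0 of these genes. The groups overlapped for each gene, while 7.41% of probes had groups that did not overlap. The median difference over all probes was 0.05. Vehicle 3 decided the Il2 and Mzb1 values. Without it Il2 stood at -0.00018, Mzb1 at 0.05 and Gsdmd at -0.34. The Il2 value passed 1 without vehicle 1, at 1.07, and without vehicle 2, at 1.15. With vehicle 1 left out, Mzb1 stood at 0.83 and Gsdmd at 0.38.

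Among the arrays of 12 November, 3 DIO against 2 vehicle and normalized on their own, the mean levels of Il2 and Mzb1 nearly coincided. Those of Gsdmd were further apart. Vehicle aortas had Il2 at 6.90 and 7.00 and DIO aortas at 6.89, 6.73 and 7.22, a difference of -0.00043 with a 95% interval of -0.69 to 0.69. Mzb1 stood at 6.25 and 5.68 against 6.17, 5.71 and 6.15, a difference of 0.04 (-0.60 to 0.69). Gsdmd stood at 5.93 and 5.32 against 5.44, 5.32 and 5.16 and differed by -0.32 (-0.96 to 0.33). Within this date a 2-fold difference in normalized intensity, which is 1 on the log2 scale, lay outside the Il2 and Mzb1 intervals in either direction. For Gsdmd a 2-fold rise and, narrowly, a 2-fold fall in intensity lay outside. Fold changes of dim probes can be understated, which was not tested, so these limits hold for intensity and not for RNA. This applies most to Gsdmd, which lay close to the floor. These intervals are not adjusted for the number of probes. The arrays of 20 November include no DIO aorta and give no such value. Among the arrays of 12 November 0% of probes passed in any comparison, while an unadjusted p under 0.05 was reached by 1.15% of probes for DIO against vehicle, 2.27% for DIO+sitagliptin against DIO and 5.94% for DIO+sitagliptin against vehicle.

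The drug itself bears on DIO+sitagliptin against DIO. Here all 3 genes had lower means in the treated aortas, Il2 by -0.53 ± 0.90 (SE, n = 3 per group), Mzb1 by -0.49 ± 0.44 and Gsdmd by -0.59 ± 0.54 on the log2 scale. Their 95% intervals as folds were 0.17 to 2.76, 0.36 to 1.40 and 0.29 to 1.52. None passed by limma (adjusted p = 1.000 for each), as 0% of all probes did, and 0.231% reached an unadjusted p under 0.05. The groups overlapped for each gene, against 3.32% of probes whose groups did not. This comparison shares its 3 DIO arrays with the previous one, so a high DIO mean enters both with opposite sign. DIO+sitagliptin 3 decided the Il2 and Gsdmd values. Without it the Il2 difference became 0.54 and that of Gsdmd -0.03. Mzb1 kept its sign, at -0.27 without this array and -0.66 without DIO 2. Il2 was -1.09 without DIO+sitagliptin 1 and -1.11 without DIO+sitagliptin 2, and Gsdmd was -1.07 without DIO+sitagliptin 1.

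On 12 November Il2 lay the other way. Its normalized level was 7.45 and 7.52 in the 2 treated aortas, above each of the 3 DIO and 2 vehicle arrays, whose highest was 7.22. The difference from DIO was 0.54 (95% interval -0.15 to 1.23; limma adjusted p = 1.000), a fold of 1.45, and that from vehicle 0.54 (-0.22 to 1.29; limma adjusted p = 0.772). This order was seen in 6.46% of the 49360 probes. It also rested on the normalization between arrays, since the deposited intensities of 146 and 189 units overlapped those of DIO 1 at 153 and vehicle 2 at 159. DIO+sitagliptin 1 was scanned at hour 18 of that day and the other 6 at hour 16. Mzb1 on 12 November was 5.69 and 5.81 in treated aortas and overlapped DIO, with a difference of -0.26 (-0.90 to 0.39). Gsdmd was 5.58 and 4.99 and differed by -0.02 (-0.67 to 0.62).

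Treated DIO mice were also compared with vehicle mice, where each group has 1 array of 20 November. The log2 difference was 0.22 ± 0.90 for Il2 (SE, n = 3 per group), -0.024 ± 0.44 for Mzb1 and -0.57 ± 0.54 for Gsdmd. As folds the 95% intervals were 0.29 to 4.62, 0.50 to 1.94 and 0.29 to 1.54, and none passed by limma (adjusted p = 1.000 for each). No probe passed (0%), and 1.44% reached an unadjusted p under 0.05. The groups overlapped for all 3 genes, against 4.04% of probes whose groups did not. With scan date as a term the values were the same by construction, since both groups hold the dates in equal numbers, and the SE of Il2 was 0.31. Il2 changed sign without vehicle 3, at -0.49, and reached 1.25 without DIO+sitagliptin 3. Gsdmd stood at -0.01 without DIO+sitagliptin 3, at -0.21 without vehicle 1, at -0.90 without vehicle 3 and at -1.05 without DIO+sitagliptin 1. Mzb1 lay between -0.42, without vehicle 3, and 0.34, without vehicle 1.

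**Figure D3:**
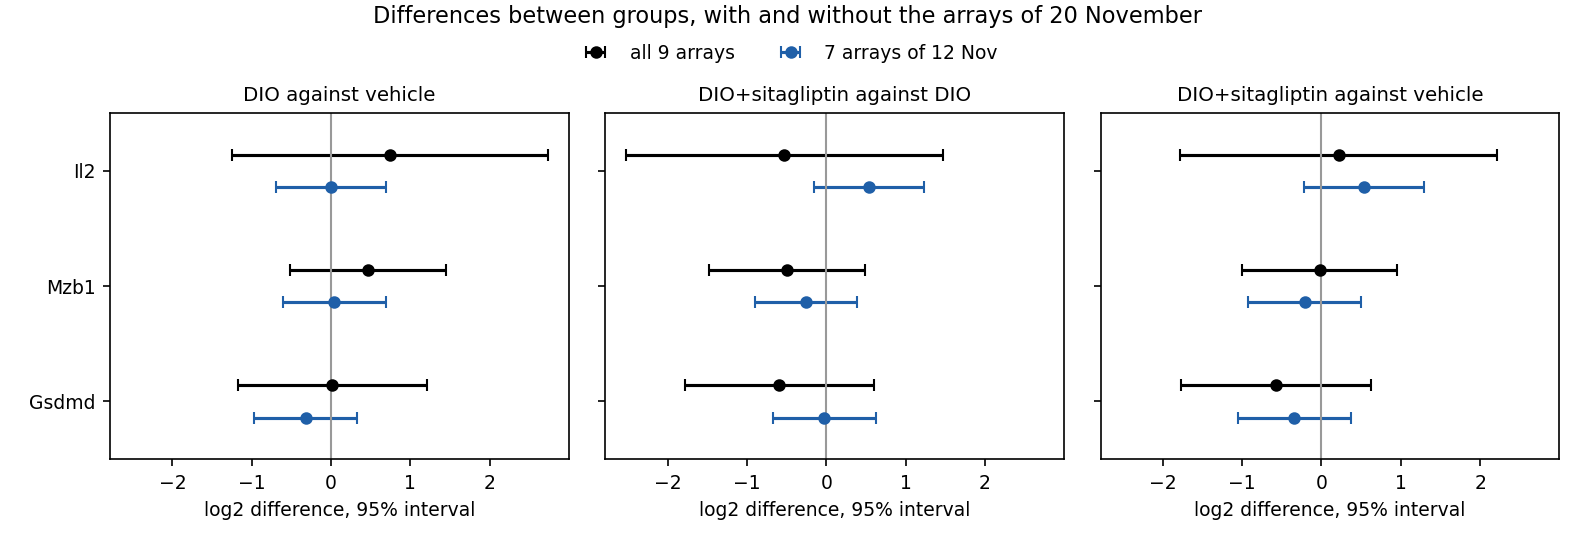
Log2 differences of Il2, Mzb1 and Gsdmd between groups with 95% intervals, from all 9 arrays (black) and from the 7 arrays of 12 November (blue). Every interval includes 0; without the arrays of 20 November the Il2 difference of DIO+sitagliptin against DIO moves from -0.53 to 0.54 and the intervals narrow.

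Values of all 3 genes were lower on the arrays of 20 November in both groups that have one, and the scan date was tested after this had been seen. In vehicle, the array of 20 November lay below the mean of the other 2 by -2.23 for Il2, -1.26 for Mzb1 and -1.14 for Gsdmd on the normalized log2 scale. In DIO+sitagliptin it lay below by -3.25 for Il2, -0.63 for Mzb1 and -1.69 for Gsdmd. All 6 of these differences were negative. A limma fit with group and scan date compared the dates within vehicle and DIO+sitagliptin, 1 array against 2 in each. DIO has no array of 20 November and entered this term only through the normalization and the estimate of the spread. The 20 November term was -2.74 ± 0.33 for Il2 (SE, limma adjusted p = 8.1e-04), -1.41 ± 0.31 for Gsdmd (adjusted p = 0.00731) and -0.94 ± 0.31 for Mzb1 (adjusted p = 0.0363). The same term was called in 39.8% of the 49360 probes and, as lower on 20 November, in 23.6%, so a call is common here and the 3 genes share it with many others. In size Il2 was far out, with 2.12% of probes as low or lower. For Gsdmd that share was 15.1% and for Mzb1 25.9%, where the median probe had -0.13.

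Of the 16 alternatives run, the Il2 call held in each that kept both arrays of 20 November, with limma adjusted p from 2.3e-06 to 0.00298. Leaving out vehicle 3 or DIO+sitagliptin 3 kept 1 array of 20 November, set against the 2 others of its own group. Without vehicle 3 the Il2 term was -3.14. Without DIO+sitagliptin 3 the Il2 term was -2.13 and that of Gsdmd -1.08, the latter no longer called (limma adjusted p = 0.119), and the probes called fell from 19637 to 5662. The Mzb1 call was lost without vehicle 3 (adjusted p = 0.285), without DIO+sitagliptin 3 (0.0871), without vehicle 1 (0.0862), without DIO+sitagliptin 2 (0.0646), without DIO 1 (0.0504) and with array medians scaled (0.107), and the limma terms in these 6 settings were, in the same order, -0.60, -1.19, -0.76, -0.98, -0.95 and -0.74. With no normalization between arrays the terms were -3.57 for Il2, -1.83 for Mzb1 and -2.64 for Gsdmd. From the median pixel signal, which is not background-subtracted, they were -1.79, -0.56 and -0.61. Array brightness and the median NEGATIVE probe moved with the scan date too, as given above. The GAPDH ratio followed the date less closely, with -1.73 on DIO+sitagliptin 3 and -1.61 on DIO 1 of 12 November. The part of these measures in the differences was not tested. Animal and scan date cannot be told apart within a group, since each group has at most 1 later array.

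**Figure D4:**
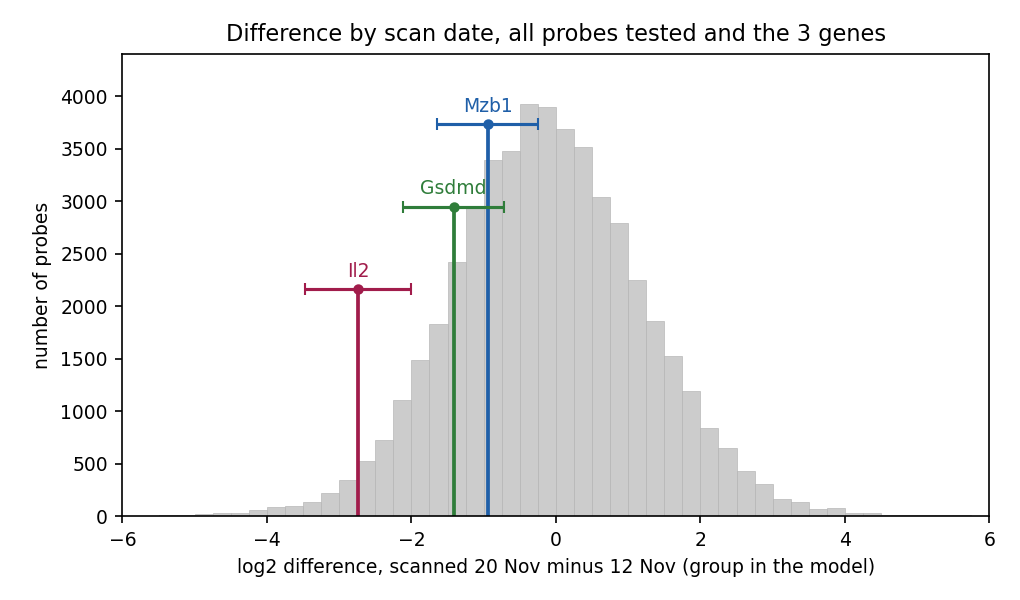
Number of probes (bars 0.25 wide) by the log2 difference between arrays of 20 and 12 November from the fit with group and scan date, with the 3 genes and their 95% intervals as vertical lines whose height has no meaning; 11 probes lie beyond the axis limits of -6 and 6. Il2 at -2.74 lies in the lower tail, with 2.12% of probes as low, while Mzb1 and Gsdmd lie within the bulk.

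Within the 7 arrays of 12 November the genes had lower SDs than the median probe. The SD over these arrays was 0.31 for Il2, 0.28 for Mzb1 and 0.34 for Gsdmd, against 0.39 for the median probe. Each value of these genes is a mean of 10 spots. Outside the control features 61537 spots served 60823 probes, so most probes were not averaged over spots. How far averaging lowered the SDs and percentiles of the genes was not tested. Il2 stood at the 30.7th percentile of probes by the SD over the 7 arrays and at the 91.9th when all 9 arrays entered. Mzb1 went from the 23.2nd to the 38.2nd and Gsdmd from the 38.9th to the 60.9th. From the lowest to the highest array of 12 November the normalized level spanned 1.76-fold for Il2, 1.55-fold for Mzb1 and 2.10-fold for Gsdmd. These SDs and spans come from the 9 arrays normalized together. The levels of 12 November given earlier came from its 7 arrays normalized on their own.

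Ratios of 2 probes were also taken within each array, on the scale of intensity + 1 and without normalization between arrays. Vehicle aortas had an Il2 to Mzb1 ratio of 1.67, 2.66 and 1.08. DIO aortas had 1.78, 2.07 and 1.98, and treated aortas 2.36, 3.25 and 0.48. On DIO+sitagliptin 3 alone Mzb1 was the brighter of the pair. The Mzb1 to Gsdmd ratio was 1.32, 1.29 and 1.32 for vehicle, then 1.76, 1.33 and 1.85 for DIO. Treated aortas had 1.06, 1.73 and 4.15, the last of them on DIO+sitagliptin 3, where Gsdmd was well above background in 2 of 10 spots and its ratio is not a reliable value. The groups overlapped for Il2 over Mzb1. For Mzb1 over Gsdmd each DIO ratio lay above each vehicle ratio, by as little as 1.33 against 1.32, and the treated aortas overlapped both. The ratios were not tested.

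Among the other 39 named genes that passed the detection filter, likeness was measured as the root mean square difference of centred normalized log2 values over the 9 arrays. Trp53rka, by its name a kinase regulating p53, was nearest to Il2 at 0.62, followed by Gsdmd at 0.70 and Mzb1 at 0.79, where the median gene had 1.37. It was also nearest to Mzb1, at 0.33, followed by Spats1 at 0.35 and Anxa8, a calcium-dependent phospholipid-binding annexin, at 0.39. For Gsdmd the order was Trp53rka at 0.38, the peroxiredoxin Prdx2 at 0.42 and Mzb1 at 0.45. Neither Trp53rka nor Spats1 reached the highest NEGATIVE probe on any of the 9 arrays. On the 7 arrays of 12 November the nearest gene was Alkbh4 for Il2 at 0.19 and Taf1a for both Mzb1 at 0.22 and Gsdmd at 0.22, so the order changed with the scan dates included.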

How the data were processed

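RNA of 9 mouse aortas was converted to Cy3-labelled cRNA and hybridized to 1 array each, per the labels' protocols. The deposited files hold spot intensity, background-subtracted and detrended by Agilent Feature Extraction 11.0.1.1, with flags per spot, per the file headers. No step between arrays is recorded there. Replicate spots were averaged as log2(intensity + 1) and the 9 arrays quantile normalized, so fold changes of dim probes can be understated. Of 60823 probes outside the control features, 49360 had at least 0.5 of their spots well above background in at least 3 arrays. A limma 3.58.1 model (R 4.3.3) held a coefficient for each group, with the variance prior following intensity and Benjamini-Hochberg adjustment over all probes kept and calls at an adjusted p under 0.05. The procedure was tested on simulated data. Python 3.11.15 served for spots and plots. The number of arrays limits the precision. RefSeq or GENCODE named 49 of 50 probes paired with an accession.

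The members and gene lists were chosen with earlier results of these data known. Named were the 3 genes, listed genes with a named probe, and the 3 named genes nearest to each. Replicates are separate mice per the series' design text. Same-numbered arrays of vehicle and DIO+sitagliptin deviated together (r = 0.67, 0.65 and 0.76 across probes), while the other group pairs each had a negative value. The arrays numbered 3 of these 2 groups also share their scan date. Deviations were taken from the mean of each group's 3 arrays, so a shift shared by the arrays numbered 3 enters all 3 values of r. The 3 values are therefore not separate evidence of pairing. Alternatives covered the normalization, intensity column, pseudocount, filter, spot summary, variance prior, arrays, replicate block and scan date. The median signal column, the block within 6 arrays and the test of the scan date term itself were added after seeing the data.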

Additional observations from a re-analysis of the deposited data

How the results depend on the processing

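All 3 comparisons and the F-test had 0 calls under each alternative run, with limma adjusted p for the 3 genes never under 0.461, and the replicate block changed no call (0 in each comparison with it, within 9 or 6 arrays). Directions were less stable. DIO against vehicle turned to -0.17 for Il2 and -0.45 for Gsdmd with scan date as a term, and to -0.00043 and -0.32 without the arrays of 20 November. Gsdmd also turned there to -0.012 with array medians scaled, to -0.012 with the median signal column and to -0.016 with a pseudocount of 16. DIO+sitagliptin against DIO turned to 0.39 for Il2 with scan date as a term and 0.54 without the arrays of 20 November. DIO+sitagliptin against vehicle turned to -0.26 for Il2 with array medians scaled, and for Mzb1 to 0.15 with no normalization, 0.072 with cyclic loess and 0.0091 with the median over spots. Leaving out single arrays gave ranges of -0.00018 to 1.15 (Il2) and -0.34 to 0.38 (Gsdmd) for DIO against vehicle, -1.11 to 0.54 (Il2) for DIO+sitagliptin against DIO, and -0.49 to 1.25 (Il2) and -0.42 to 0.34 (Mzb1) for DIO+sitagliptin against vehicle. The scan date term called 5662 to 19038 probes over single arrays left out. Where a single 20 November array remained, it was assumed to vary like the others. The causes were not tested. Requiring detection on all 9 arrays removed Gsdmd, and the planned run on the raw mean signal was not made, the median signal column being used in its place. Signals near or under the highest NEGATIVE probe limit Gsdmd on all arrays and all 3 genes on 20 November. Measured against the median NEGATIVE probe, Mzb1 stood higher on 20 November than on 12 November.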
